A study of Saccharomyces cerevisiae with 4 samples.

Results

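The genes for the subunits of the nuclear RNA polymerases I, II and III, together with RRN3, the gene for a factor that works with RNA polymerase I (Pol I), were followed in budding yeast (Saccharomyces cerevisiae) whose Swd2 protein carries a tag. The members were taken by gene name from a fixed list of 32, and all 32 were found among the 6697 genes of the deposited table and passed the filter on low values. They comprise 7 genes for subunits found only in Pol I, 7 only in Pol II, 10 only in Pol III, 2 for subunits shared by Pol I and Pol III, 5 for subunits common to all of these enzymes, and RRN3. mRNA was sequenced in 2 libraries of a wild type (WT, genotype label wildtype) and 2 libraries of the strain labelled as having a 9Myc tag at the N terminus of Swd2 (9Myc-Swd2), a shared subunit of the histone methyltransferase complex COMPASS and of the cleavage and polyadenylation factor. Cultures of both strains were in YPD, a rich medium with glucose, at 30 °C, and were collected when the OD600 reached 1.0. The design text calls the wild type isogenic. The labels give no drug, time course or strain background, and name neither the promoter of the tagged gene nor the number of clones. The comparison is of mRNA levels with and without the tag.

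Pol I makes the large ribosomal RNA precursor, Pol II makes mRNA and many small RNAs, and Pol III makes tRNA, the 5S ribosomal RNA and the U6 spliceosomal RNA. Each enzyme has a core built on a pair of very large catalytic subunits, an assembly platform, small common subunits, and a protruding stalk that binds the emerging RNA. Pol I and Pol III also carry built-in heterodimers related to the Pol II factor TFIIF. In growing yeast most transcription is by Pol I and Pol III, and their output is tied to nutrient supply and growth. Promoters of many genes for Pol I and Pol III subunits hold the PAC element (named after polymerases A and C, older names of Pol I and Pol III), often with a second element called RRPE (ribosomal RNA processing element).

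The libraries held between 7849193 and 8388090 reads assigned to genes, and the 32 genes took between 0.502% and 0.547% of them, with 142 to 5196 reads per gene and library. SWD2 itself was read at 335 and 351 normalized counts in WT and at 1080 and 969 in 9Myc-Swd2, which is 1.58 ± 0.08 (SE) in log2 fold change (adjusted p = 2.4e-10 by limma-trend); the table cannot show the tag. SWD2 lies on chromosome XI, and the genes of that chromosome were higher as a whole, with a median log2 fold change of 0.90 against -0.02 for the other genes. Reads of chromosome XI made up 5.78% and 5.80% of the WT libraries and 9.66% and 9.41% of the 9Myc-Swd2 libraries. RPC37, RPC25 and RRN3 lie on it, so counts below are also given for the other 29 genes. Of 4 marker genes of alpha cells, which were abundant, MF(ALPHA)2 fell from 651 ± 15.1 to 404 ± 9.62 and SAG1 from 2278 ± 87.6 to 1985 ± 168 (limma-trend adjusted p = 3.7e-06 and 0.033), while MF(ALPHA)1 and STE3 did not pass. Of 4 marker genes of a cells, STE2, BAR1 and MFA2 lay between 22.4 and 179 in all libraries and did not pass, and MFA1 rose from 16.8 ± 3.13 to 51.3 ± 5.60 (limma-trend adjusted p = 0.00021). The part of these differences in the members' values was not tested. Whether replicate libraries stem from different cultures is not in the labels, and the p-values therefore reflect the spread of these 4 samples, which may be technical.

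Values are the authors' normalized read counts (reads divided by a size factor per library), given as mean ± SD over n = 2 libraries per group. Fold changes are of 9Myc-Swd2 over WT on the log2(value + 1) scale, with their standard error (SE), and a gene is said to rise or fall where its limma-trend p, adjusted over all genes tested, was under 0.05. In bulk RNA, fewer cells with an mRNA and less of it per cell cannot be told apart.

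Promoter sequence was compared between the classes. In the R64 assembly a window from 250 bases before to 50 bases after the start codon was read for each gene and searched on both strands. The PAC core, GATGAG, was present in 6 of 7 genes for Pol I subunits, in both genes shared by Pol I and Pol III, in 8 of 10 genes for Pol III subunits and in RRN3. It was present in 1 of 7 Pol II genes, RPB2, where it lies 34 bases into the coding sequence, and in 0 of 5 genes for the common subunits. Over all 6020 protein-coding genes 20.3% of windows hold it, against 18 of the 32 members. Within the 250 bases before the start the counts were 17 of 32 members and 17.0% of all genes. The longer form GCGATGAG, which contains the core, was found in 6 members (RPA49, RPC40, RPC19, RPC82, RPC31 and RPC25) and in 3.92% of all promoters. The RRPE core, AAAATTTT, which is its own reverse complement, was found in 17 members and 9.00% of all promoters, and 13 members and 4.37% of all promoters held both cores. PAC was described in promoters of polymerase subunit genes, so its share among the members is no independent finding. A match is a run of letters and no evidence that a protein binds there.

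Stretches of 30 bases around the PAC core are shown for some of the members described below, with the core in capitals. Each is given 5′ to 3′ on the strand where it reads GATGAG (RefSeq, R64, which is the assembly that sacCer3 names).
RPA190 (chrXV:960808-960837, minus strand): acctttttaagaGATGAGATGAGatttgaa
RPA135 (chrXVI:581283-581312, plus strand): gaataattaagaGATGAGATGAGtctctaa
RPA49 (chrXIV:182721-182750, minus strand): attttttattgcGATGAGctgaaattttcc
RPA34 (chrX:140315-140344, plus strand): aaaaattttatcGATGAGcattgaatagct
RPA14 (chrIV:769454-769483, minus strand): ctctgccttaccGATGAGacctctataatc
RPC40 (chrXVI:746901-746930, minus strand): aaaaattattgcGATGAGttgaaagaaaaa
RPC34 (chrXIV:635341-635370, minus strand): atgtatttgtgaGATGAGatcattacagaa
RPC31 (chrXIV:348587-348616, plus strand): ataggttgctgcGATGAGgaaactattttc
RPC25 (chrXI:176658-176687, plus strand): aaaattttaagcGATGAGcatcgcctgaat
RRN3 (chrXI:208061-208090, plus strand): aaaagatattttGATGAGcatctctcgttt
RPA190 and RPA135 carry overlapping copies, as does RPC53 (not shown), and RPA34 and RPC25 carry the RRPE letters a few bases before the core.

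**Figure D1:**
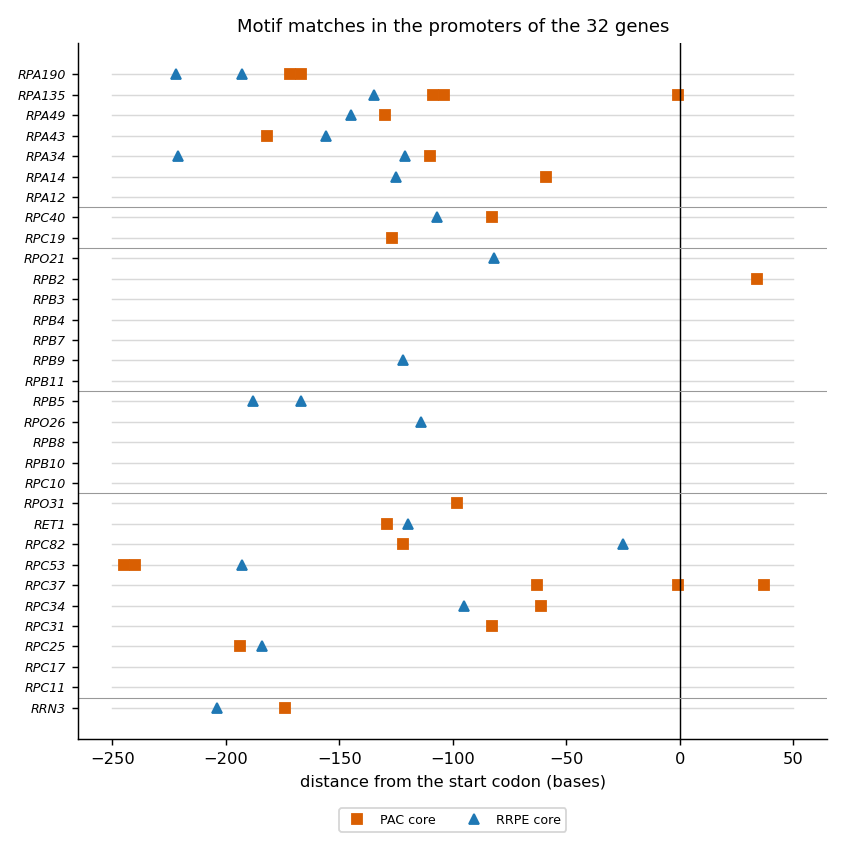
Matches to the PAC core (squares) and the RRPE core (triangles) in the promoter of each of the 32 genes, placed by distance from the start codon in bases, with genes ordered by enzyme. PAC matches lie in 6 of 7 Pol I genes and 8 of 10 Pol III genes and in 0 of 5 genes for the common subunits.

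The subunit genes did not move together. Among the 32 members there were 6 rises, 13 falls and 13 genes short of the threshold, where 22.3% of all 6503 genes tested rose and 21.4% fell. The 3 genes on chromosome XI were among those that rose, where 90.6% of the tested genes of that chromosome did. Of the 29 others, 3 rose (10.3%) and 13 fell (44.8%), where 18.5% and 22.6% of all tested genes off chromosome XI did. Their median log2 fold change was -0.19, against -0.02 for all genes off that chromosome. In 16 of these 29 genes both 9Myc-Swd2 libraries lay below both WT libraries and in 8 they lay above, where 37.5% and 32.8% of genes off chromosome XI did. With edgeR's quasi-likelihood test, run on whole reads recovered from the values, 6 members rose and 13 fell, where 22.9% and 21.3% of all genes did. Fitting limma with no trend lowered the number of falling members to 8, and that of all falling genes from 1393 to 882. Falls were also fewer without WT replicate 2, both among the members and among all genes.

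**Figure D2:**
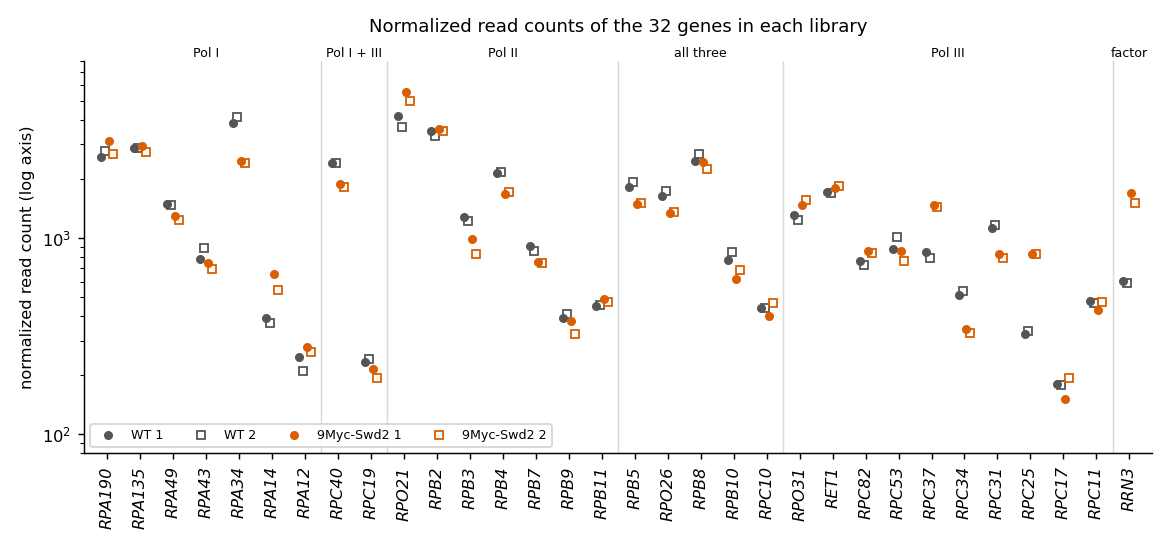
Normalized read count (log axis) of each of the 32 genes in the 4 libraries, grouped by enzyme; grey marks are WT and orange marks 9Myc-Swd2, circles replicate 1 and squares replicate 2. RPA34 and RPC34 lie lower in both 9Myc-Swd2 libraries, and RPC25 and RRN3 higher.

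**Figure D3:**
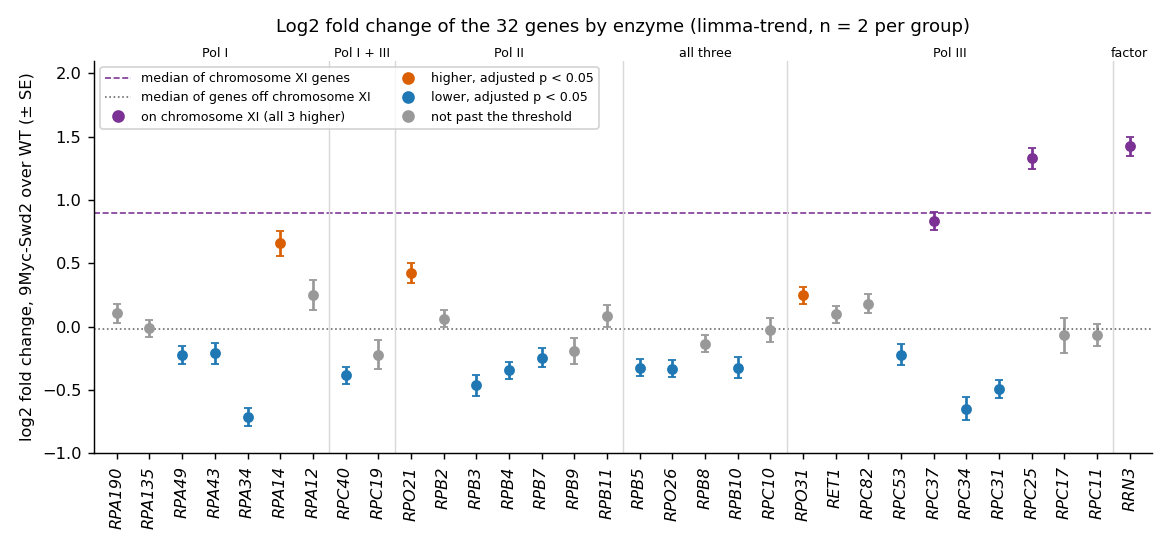
Log2 fold change of 9Myc-Swd2 over WT with its standard error for each of the 32 genes, coloured by call, with the medians of chromosome XI genes (dashed) and of all other genes (dotted). Of the 29 genes off chromosome XI, 13 fell and 3 rose.

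Among the Pol I genes, RPA34 fell most and RPA14 rose. RPA34 encodes the partner of Rpa49 in the TFIIF-related heterodimer, and its gene (YJL148W, on chromosome X from 140437 to 141138, plus strand) has 1 exon and was read at 3862 and 4139 in WT and at 2471 and 2408 in 9Myc-Swd2. Its mean fell from 4001 ± 196 to 2440 ± 44.5, which in log2 is -0.71 ± 0.07 (limma-trend adjusted p = 1.8e-07), and the groups lay far apart. The window around its start is shown because RPA34 has the largest fall among the 32 genes, with the PAC core and 2 RRPE cores in capitals.
RPA34 promoter (chrX:140187-140486, plus strand): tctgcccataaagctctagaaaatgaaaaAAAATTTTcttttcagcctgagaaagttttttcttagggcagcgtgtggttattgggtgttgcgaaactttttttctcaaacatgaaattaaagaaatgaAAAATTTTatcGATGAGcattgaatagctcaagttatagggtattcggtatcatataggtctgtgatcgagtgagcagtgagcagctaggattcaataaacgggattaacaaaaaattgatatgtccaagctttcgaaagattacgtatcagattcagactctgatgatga

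RPA49, the gene for that partner, fell less, from 1482 ± 4.37 to 1270 ± 45.7. Its log2 fold change was -0.22 ± 0.07 (limma-trend adjusted p = 0.013), and the authors' deposited table gives an adjusted p of 0.059. Without WT replicate 1 or WT replicate 2 its limma-trend adjusted p was 0.097 and 0.096. RPA14, which with Rpa43 forms the Pol I stalk in yeast, was read at 391 and 368 in WT and at 659 and 545 in 9Myc-Swd2, with no overlap. Its log2 fold change was 0.66 ± 0.10 (limma-trend adjusted p = 3.3e-05), the largest rise among the subunit genes off chromosome XI. Its annotated end shares 8 bases with the reading frame YDR157W on the same strand. RPA43, the Rrn3-binding stalk subunit, was at 781 and 888 in WT and at 746 and 695 in 9Myc-Swd2, close to the edge of the WT range. It passed the threshold with a fall (-0.21 ± 0.08, limma-trend adjusted p = 0.048), but not without WT replicate 2 (adjusted p = 0.47) or without 9Myc-Swd2 replicate 2 (adjusted p = 0.13).

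The catalytic pair of Pol I did not pass. RPA190, the largest subunit, was read at 2593 and 2788 in WT and at 3115 and 2690 in 9Myc-Swd2, and the groups overlapped. Without 9Myc-Swd2 replicate 2 its log2 fold change was 0.21 with a limma-trend adjusted p of 0.015. RPA135, the second largest subunit, was level, at 2863 ± 2.20 in WT and 2840 ± 144 in 9Myc-Swd2. RPA12, whose product helps Pol I to cleave RNA and terminate, was at 248 and 210 in WT and at 280 and 264 in 9Myc-Swd2 (0.25 ± 0.12, limma-trend adjusted p = 0.089). It is also the single Pol I gene whose promoter window holds neither core.

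RPC40 and RPC19 encode the assembly platform that Pol I and Pol III share. RPC40 was read at 2422 and 2403 in WT and at 1876 and 1825 in 9Myc-Swd2. It fell by 0.38 ± 0.07 on the log2 scale (limma-trend adjusted p = 0.00014), well outside the spread of either group. RPC19, a less abundant mRNA, was at 235 and 242 in WT and 215 and 195 in 9Myc-Swd2; the groups were apart, but the gene did not pass (limma-trend adjusted p = 0.13).

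Of the 5 genes for subunits common to all of the enzymes, 3 fell, and all 5 had a log2 fold change below 0. With size factors taken without chromosome XI genes, though, RPC10 was at 0.00028. Of the 6161 genes tested off chromosome XI, 22.6% fell and 3230 had a log2 fold change below 0. RPB5, whose product forms part of the jaw that grips downstream DNA, was read at 1828 and 1921 in WT and at 1489 and 1505 in 9Myc-Swd2. RPO26, the Rpb6 subunit gene and the only member with an intron (2 coding exons), was at 1642 and 1744 in WT and at 1337 and 1351 in 9Myc-Swd2. These genes fell to a like extent, with log2 fold changes of -0.32 ± 0.07 for RPB5 and -0.33 ± 0.07 for RPO26 (limma-trend adjusted p = 0.0008 and 0.00072). RPB10, a small zinc-binding subunit, fell from 814 ± 53.7 to 650 ± 48.7 (-0.33 ± 0.08, limma-trend adjusted p = 0.004), but not without WT replicate 2 (adjusted p = 0.10). RPB8 was lower in both 9Myc-Swd2 libraries (2431 and 2260 against 2463 and 2681) without passing (limma-trend adjusted p = 0.14). It passed without 9Myc-Swd2 replicate 1 (adjusted p = 0.039). RPC10, another small zinc-binding subunit, was at 441 ± 1.85 and 435 ± 46.5, with overlapping groups.

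Among the Pol II genes, the gene for the largest subunit rose, and those for the platform subunit Rpb3 and for the stalk fell. RPO21 (YDL140C, chromosome IV, 205360 to 210561, minus strand) encodes the subunit with the repetitive C-terminal domain that is phosphorylated during transcription. It was read at 4167 and 3676 in WT and at 5525 and 5002 in 9Myc-Swd2, and rose by 0.43 ± 0.08 in log2 (limma-trend adjusted p = 0.00029). RPB2, its catalytic partner, was at 3507 and 3296 in WT and at 3586 and 3523 in 9Myc-Swd2, slightly higher in both but not past the threshold (0.06 ± 0.07). The promoter of RPO21 is shown for contrast with that of RPA34: it holds an RRPE core (capitals) and no PAC core.
RPO21 promoter (chrIV:210512-210811, minus strand): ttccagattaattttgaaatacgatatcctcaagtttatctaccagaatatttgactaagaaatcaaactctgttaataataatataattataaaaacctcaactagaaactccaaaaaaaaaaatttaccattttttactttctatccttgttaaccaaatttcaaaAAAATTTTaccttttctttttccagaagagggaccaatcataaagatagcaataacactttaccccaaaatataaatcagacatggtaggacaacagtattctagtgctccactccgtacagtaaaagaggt

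RPB3, the Pol II counterpart of Rpc40 in the assembly platform, was read at 1278 and 1218 in WT and at 990 and 828 in 9Myc-Swd2. It fell by 0.46 ± 0.08 on the log2 scale (limma-trend adjusted p = 0.00022). RPB4, a stalk subunit that yeast can live without at moderate temperature, fell from 2154 ± 15.8 to 1697 ± 32.6 (-0.34 ± 0.07, limma-trend adjusted p = 0.00039). Its stalk partner RPB7 fell from 888 ± 35.5 to 750 ± 7.07 (-0.24 ± 0.07, limma-trend adjusted p = 0.013), though the adjusted p was 0.16 without WT replicate 1, 0.052 without WT replicate 2 and 0.076 in the authors' deposited table. Both stalk genes and the larger platform gene thus fell, and none of the 3 holds a PAC core. RPB9, involved in start site choice and proofreading, was at 401 ± 13.1 and 352 ± 36.7 and did not pass (limma-trend adjusted p = 0.13), but it passed without 9Myc-Swd2 replicate 1 (adjusted p = 0.023). RPB11, the smaller platform subunit, was at 456 ± 3.14 and 483 ± 11.6, a difference that did not pass.

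The Pol III genes split in both directions, and the 2 largest rises were on chromosome XI. RPC25 (YKL144C, chromosome XI, 175843 to 176481, minus strand), a stalk subunit needed for initiation, was read at 325 and 336 in WT and at 832 and 833 in 9Myc-Swd2. Its log2 fold change was 1.33 ± 0.08 (limma-trend adjusted p = 1e-09), which is 0.42 above the median of chromosome XI genes of at least 5 CPM (reads per 1e+06 assigned reads). RPC37 (YKR025W, chromosome XI, from 487770 to 488618 on the plus strand), of the TFIIF-related heterodimer that acts in termination and reinitiation, was at 847 and 790 in WT and at 1477 and 1447 in 9Myc-Swd2. It rose by 0.84 ± 0.07 on the log2 scale (limma-trend adjusted p = 4e-08), which is -0.07 relative to that chromosome median. What part the higher level of the whole chromosome has in these values was not tested.

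Off chromosome XI, 3 of 8 Pol III genes fell and 1 rose, where 22.6% and 18.5% of all tested genes off that chromosome did. RPC34 and RPC31 encode subunits of the trimer that is particular to Pol III and that opens promoter DNA with TFIIIB. RPC34 was read at 515 and 539 in WT and at 346 and 328 in 9Myc-Swd2, a log2 difference of -0.65 ± 0.09 (limma-trend adjusted p = 1.7e-05). RPC31 was at 1121 and 1162 in WT and at 832 and 791 in 9Myc-Swd2, a log2 difference of -0.49 ± 0.07 (limma-trend adjusted p = 2.9e-05). RPC82, the third subunit of that trimer, was higher in both 9Myc-Swd2 libraries, at 855 and 840 against 766 and 727, and did not pass (0.18 ± 0.07, limma-trend adjusted p = 0.056). Of the trimer genes 2 fell and 1 did not pass, and all 3 promoters hold the PAC core. RPC53, the partner of Rpc37, passed with a fall from 946 ± 93.8 to 811 ± 65.0 (-0.22 ± 0.08, limma-trend adjusted p = 0.043). It did not pass without WT replicate 2 (adjusted p = 0.46), without 9Myc-Swd2 replicate 2 (0.18) or in the authors' deposited table (0.14).

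Of the catalytic pair, RPO31, the largest subunit, was read at 1315 and 1242 in WT and at 1476 and 1560 in 9Myc-Swd2. It rose by 0.25 ± 0.07 on the log2 scale (limma-trend adjusted p = 0.008), but not without WT replicate 2 (adjusted p = 0.13) or with quantile normalization (adjusted p = 0.14). RET1, the second largest subunit, was at 1703 ± 13.1 and 1822 ± 33.0, higher in both 9Myc-Swd2 libraries without passing. RPC17, the stalk partner of Rpc25, was at 181 and 178 in WT and at 151 and 194 in 9Myc-Swd2, and RPC11, the RNA cleavage subunit, at 477 and 468 in WT and at 431 and 475 in 9Myc-Swd2; in both the groups overlapped.

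RRN3 had the largest change of the 32 genes. Its product binds the Rpa43 stalk of Pol I and brings the enzyme to the ribosomal DNA promoter. The gene (YKL125W, with 1 exon, from 208247 to 210130 on the plus strand of chromosome XI) was read at 603 and 590 in WT and at 1694 and 1515 in 9Myc-Swd2. The log2 fold change was 1.42 ± 0.08 (limma-trend adjusted p = 2.1e-10), 0.52 above the median of chromosome XI genes of at least 5 CPM. RPA43, the gene for the subunit it binds, was lower in both 9Myc-Swd2 libraries.

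The mRNA levels of partner subunits, per kilobase of coding sequence, were set against each other within each library. RPC25 over RPC17, the Pol III stalk, had a ratio of levels of 1.37 and 1.44 in WT and of 4.19 and 3.27 in 9Myc-Swd2. RPC37 over RPC53 had 1.44 and 1.17 in WT and 2.58 and 2.83 in 9Myc-Swd2. In both pairs the numerator is the gene on chromosome XI. RPA14 over RPA43, the Pol I stalk, with neither gene on that chromosome, had a ratio of levels of 1.18 and 0.983 in WT and of 2.09 and 1.86 in 9Myc-Swd2. RPA34 over RPA49 went the other way, from 4.62 and 4.97 in WT to 3.37 and 3.46 in 9Myc-Swd2. RPB4 over RPB7, the Pol II stalk, differed least, at 1.82 and 1.94 in WT and at 1.72 and 1.79 in 9Myc-Swd2, and its groups too did not overlap. The groups did not overlap for the catalytic pairs either. RPO21 over RPB2 was at 0.840 and 0.788 in WT and at 1.09 and 1.00 in 9Myc-Swd2. RPO31 over RET1 was at 0.605 and 0.577 in WT and at 0.646 and 0.665 in 9Myc-Swd2. RPA190 over RPA135 was at 0.655 and 0.705 in WT and at 0.765 and 0.710 in 9Myc-Swd2. With 2 libraries against 2, an exact permutation test of such a ratio cannot give a two-sided p under 0.333, so these are descriptions.

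**Figure D4:**
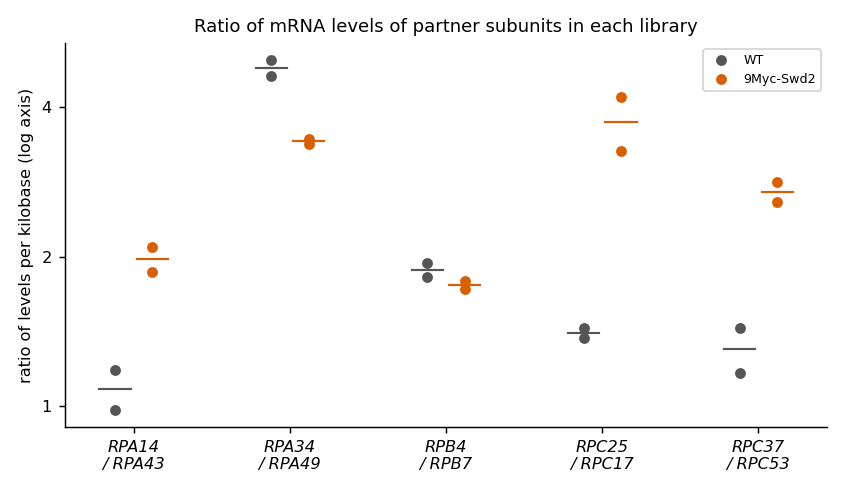
Ratio of the levels per kilobase (log axis) of 5 pairs of partner subunits in each library, with a bar at each group mean; grey is WT and orange 9Myc-Swd2. RPC25 over RPC17 and RPC37 over RPC53 are higher in both 9Myc-Swd2 libraries, and RPA34 over RPA49 is lower.

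The catalytic subunits differ from the small ones in length as well as in role. The 6 members of at least 3000 bases are the catalytic pairs, of which RPO21 and RPO31 rose and 0 fell, with a median log2 fold change of 0.10. Of the 23 shorter members off chromosome XI, 13 fell and RPA14 rose, with a median of -0.22. Coding length moved with the fold change over all genes too, but not evenly. Among genes off chromosome XI of at least 5 CPM, the 494 of at least 3000 bases had a median log2 fold change of 0.19, with 49.6% higher and 6.28% lower. The 1349 genes of 500 to 1000 bases had a median of -0.14, with 9.79% higher and 37.4% lower. Of the members of that length off chromosome XI, 8 of 8 fell. The 721 genes under 500 bases had a median of -0.05, with 15.5% higher and 27.3% lower. Of the 11 members under 500 bases, 1 rose and 2 fell, with a median of -0.07. The part of length in the members' changes was not tested. Set against the median of genes within 25% of its own length, a comparison added after the values were seen, RPA34 was at -0.55, RPC34 at -0.52 and RPA14 at 0.74 on the log2 scale, RPO21 at 0.21 and RPO31 at 0.06, against 0.25 unmatched for RPO31. RPA190, RPA135, RPB2 and RET1 lay below genes of like length, by differences of -0.10, -0.17, -0.09 and -0.05. Across the 29 members off chromosome XI, Pearson's r between log2 coding length and log2 fold change was 0.29 and Spearman's rho 0.15, where all points come from the same 4 libraries. Over all 5399 genes off chromosome XI of at least 5 CPM with a coding length, r was 0.19 and rho 0.29.

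**Figure D5:**
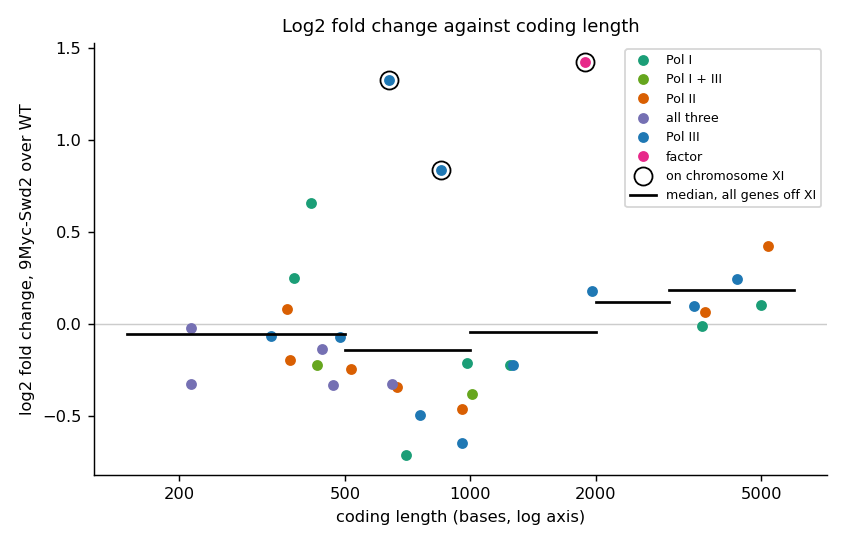
Log2 fold change of 9Myc-Swd2 over WT against coding length in bases (log axis) for the 32 genes, coloured by enzyme and ringed where the gene is on chromosome XI. Black bars are medians of all genes off chromosome XI, members included, of that length range with at least 5 CPM. The 6 catalytic subunit genes of at least 3000 bases have a median of 0.10.

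In level per kilobase, RPB8 (5832 ± 348 in WT), RPA34 (5699 ± 279), RPB10 (3824 ± 252), RPO26 (3617 ± 153) and RPB4 (3235 ± 23.7) were the highest of the 32 in WT. The first and the second in this order did not differ beyond their spread, nor did the third and the fourth. RPO31 (292 ± 11.8) and RRN3 (316 ± 4.72) were the lowest. In 9Myc-Swd2 RPB8 stood at 5319 ± 274 and RPA34 at 3475 ± 63.3 normalized counts per kilobase, so that they no longer lay within each other's spread. The levels per kilobase, summed over the genes of a class, were 10592 ± 271 in WT and 8769 ± 461 in 9Myc-Swd2 for Pol I, and RPA34 was the largest single contributor in both. For Pol II they were 10281 ± 153 and 9213 ± 299, and for the common subunits 18234 ± 846 and 15593 ± 213. For Pol III the sum was 7244 ± 44.6 in WT and higher in 9Myc-Swd2, at 8109 ± 47.1, but without RPC25 and RPC37 it was 5762 ± 79.3 in WT and lower in 9Myc-Swd2, at 5085 ± 71.1. No class sum overlapped between the groups. The sum over genes tested off chromosome XI did not overlap either. It was 8394986 and 8678409 in WT and 7964334 and 8347914 in 9Myc-Swd2, a ratio of means of 0.955.

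Members with and without the PAC core had like counts of calls. Of the members off chromosome XI, the 15 with the core comprised 2 that rose and 7 that fell, with a median log2 fold change of -0.21. The 14 without it comprised 1 that rose and 6 that fell, with a median of -0.16. Among all genes off chromosome XI of at least 5 CPM, 21.1% with the core rose and 24.8% fell. Without it 20.4% rose and 24.9% fell. Split by the RRPE core, the same members gave 2 rises and 8 falls among 15 with it (median -0.21). The 14 without it had 1 rise and 5 falls (median -0.10). Of all such genes, 14.4% rose and 35.4% fell with the RRPE core, and 21.1% and 23.8% without it. RPA34 and RPA14, with the opposite changes, both hold PAC and RRPE cores. These medians are a description of 29 genes, with no test.

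Genes for other parts of the transcription machinery were read from lists of 104 genes in all, of which 19 rose (18.3%) and 23 fell (22.1%), with a median log2 fold change of -0.02. These shares are near those over all genes tested, 22.3% and 21.4%. Of 12 genes for Pol I initiation factors and ribosomal DNA proteins, 3 rose and 5 fell, and 2 fell without WT replicate 2. SPT15, the TATA-binding protein that serves all of the polymerases, fell from 1212 ± 169 to 792 ± 55.7 (-0.61 ± 0.09). RRN6, of the core factor that Rrn3-bound Pol I meets at the promoter, rose from 754 ± 77.1 to 1048 ± 15.4, and REB1, a DNA-binding protein with sites in the ribosomal DNA, from 831 ± 24.9 to 1163 ± 16.8. Of 10 genes for Pol III initiation factors and Maf1, 1 rose and 3 fell. Those that fell were BRF1, a subunit of TFIIIB (1001 ± 24.7 to 856 ± 23.5), MAF1, the repressor of Pol III (639 ± 8.08 to 546 ± 27.7), and TFC1, a subunit of TFIIIC (525 ± 13.8 to 443 ± 47.0). Their log2 fold changes lay between -0.25 and -0.23, with limma-trend adjusted p of 0.017, 0.032 and 0.038. These calls were near the threshold: 0 genes of the list fell without WT replicate 1, without WT replicate 2, with DESeq2 or in the authors' deposited table, and 0 rose under the same settings. Without WT replicate 1 the adjusted p was 0.073 for BRF1, 0.13 for MAF1 and 0.12 for TFC1.

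Of 31 genes for Pol II general factors, 6 rose and 5 fell, but 3 rose without WT replicate 1 or WT replicate 2, and 8 fell without 9Myc-Swd2 replicate 1. The 3 with the smallest p, TFA1 and TFA2 (both subunits of TFIIE) and TOA2 (a subunit of TFIIA), are the 3 on chromosome XI and rose by 0.60, 0.59 and 0.68 in log2. The list of 25 Mediator genes, with 0 on chromosome XI, held 4 that rose and 5 that fell. Without WT replicate 1 or WT replicate 2 it held 2 that rose and 3 that fell, without 9Myc-Swd2 replicate 1 it held 2 that rose, and 2 rose and 3 fell with DESeq2 or in the authors' deposited table. ROX3 fell from 1060 ± 58.6 to 681 ± 48.4 and CSE2 from 211 ± 7.43 to 136 ± 0.740, while GAL11, a tail subunit that activators bind, rose from 937 ± 115 to 1368 ± 161. Of 14 genes for elongation factors and kinases and phosphatases of the Pol II C-terminal domain, 2 rose and 2 fell; 4 rose without 9Myc-Swd2 replicate 2, and 1 fell without any 1 of that library, WT replicate 1 or WT replicate 2. CTK1, a kinase of that domain (487 ± 13.2 to 1063 ± 24.7), and ELF1 (1693 ± 84.6 to 2498 ± 1.64) rose and lie on chromosome XI, and SPN1 fell from 1772 ± 35.1 to 1370 ± 2.46.

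Of 10 genes listed as polymerase assembly and import factors, 3 rose and 3 fell. NPA3, a GTPase needed for nuclear import of Pol II, fell from 2573 ± 157 to 1903 ± 153 (-0.44 ± 0.07). IWR1, which guides assembled Pol II into the nucleus, fell from 1008 ± 36.4 to 769 ± 54.4 (-0.39 ± 0.08). ZPR1, best known for its role in folding translation elongation factor 1A rather than in polymerase assembly, rose from 2252 ± 18.7 to 7015 ± 787. Of the 2 genes of the mitochondrial RNA polymerase, RPO41 and MTF1, 0 passed with limma-trend, edgeR or DESeq2, and 0 had an unadjusted limma-trend p under 0.05.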

How the data were processed

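The authors deposited 1 table of 6697 genes whose 4 library columns hold a signal, read counts per gene divided by a size factor per library. Dividing a column by its smallest step gave whole reads for 100% of values (tolerance 1e-06 steps). The deposited table also holds the authors' mean, log2 fold change with its standard error, score (Wald statistic), p-value and adjusted p-value, and the log10 of each group's mean, which was not used, per the file headers. Per the submitters' processing notes, bcl2fastq 1.8.4 was used and the build was sacCer3; for aligner and counter the sources used here give no name, so reads of overlapping or antisense genes could not be told apart.

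limma-trend (limma 3.58.1, R 4.3.3) compared the groups on log2(value + 1), with no other term, over 6503 genes whose mean was 1 or more, and p-values were adjusted by the Benjamini-Hochberg method over all of them. edgeR 4.0.16 and DESeq2 1.42.0 were run on the recovered reads. The fit was tested on simulated data. Positions and sequences are from RefSeq R64. The chi-square per gene between the 2 libraries of a group was 3.37 for WT and 8.66 for 9Myc-Swd2, so neither pair repeated each other. The named genes are all members, SWD2, and at most 3 genes per list with the smallest p past the threshold; the mating-type markers, RPO41 and MTF1 were named beside them. The members and lists were chosen with earlier results of these data known. Alternatives were other normalizations, filters, pseudocounts and tests, a replicate block, and each library left out in turn.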

Additional observations from a re-analysis of the deposited data

How the results depend on the processing

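With 2 libraries per group, calls near the threshold are uncertain. Of all genes, 950 rose and 847 fell with no filter, and 882 fell with limma without a trend. Of the members, 3 rose without those on chromosome XI, and 8 fell with limma without a trend. Of the Pol I genes, 1 fell with DESeq2, in the authors' deposited table, with limma without a trend and at an adjusted p under 0.01, against 3 in the report. With no filter, 0 Pol II genes rose (RPO21 had an adjusted p of 0.054). Of the listed machinery genes, 12 rose and 12 fell with limma without a trend, 11 rose and 12 fell with no filter, and 15 fell with DESeq2, in the deposited table and at 0.01. With 1 library left out, falls ranged from 795 to 1438 among all genes and from 8 to 15 among the members; Pol I genes had 1 to 2 rises and 1 to 3 falls, and the listed genes 11 to 21 rises and 13 to 24 falls. Leaving out WT replicate 2 gave the fewest falls among all genes, members and listed genes. Where a group had 1 library, it was assumed to vary like the other group.

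Some members near 0 changed sign without passing. Size factors without chromosome XI genes gave RPA135 0.011 and RPC10 0.00028, and quantile normalization gave RET1 -0.019. With 1 library left out, RPA135 ranged from -0.064 to 0.039, RPC10 from -0.132 to 0.086, RPC17 from -0.246 to 0.110 and RPC11 from -0.134 to 0.0062; RPA135 was above 0 without 9Myc-Swd2 replicate 2 and the others without 9Myc-Swd2 replicate 1. Scaling to equal library totals moved all genes by a median of -0.06 on the log2 scale, and the ratio of the summed level per kilobase of 9Myc-Swd2 to WT became 0.861 for Pol II, 1.08 for Pol III and 0.753 for the subunits shared by Pol I and Pol III, from 0.896, 1.12 and 0.784. The replicate numbers shared by the groups do not show pairing by the labels (correlation of deviations 0.17 over 5860 genes); with them as a replicate block RPC82 passed (log2 fold change 0.18, adjusted p = 0.031 by limma-trend), and no other member changed its call. With size factors taken without chromosome XI genes, 7 members rose and 11 fell. In that setting RPC82 passed (log2 fold change 0.21, limma-trend adjusted p = 0.034). RPA43 and RPC53 did not pass there (limma-trend adjusted p = 0.077 and 0.067). The causes were not tested.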

Other observations

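Over all genes off chromosome XI of at least 5 CPM, the 500 with the RRPE core in the promoter window comprised 14.4% that rose and 35.4% that fell, with a median log2 fold change of -0.08. The 4894 without it comprised 21.1% that rose and 23.8% that fell, with a median of -0.01. The PAC core made no such split: 21.1% rose and 24.8% fell among the 1078 genes with it, and 20.4% and 24.9% among the 4316 without it. These shares are a description, with no test of the difference.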
